A study of Mus musculus with 30 samples.

Results

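The comparison set livers of non-irradiated male mice at month 9 against livers of non-irradiated male mice at month 4, across all measured genes. It rests on 6 of the 30 libraries of the series, chosen by their labels: 3 control livers at month 9 (270 days) and 3 control livers at month 4 (120 days). All mice were of the strain the labels write as C57BL16. Time was counted from the day on which the other arm of the study was exposed to 56Fe ions, a heavy charged particle of cosmic radiation, and the age of the mice at that day is not given in the sources used here. The irradiated arm, which had received 0.2 Gy, supplied 3 livers at month 9 and 3 at month 4. They share no library with the controls and are compared with them at the same times. RNA came from slices of the frozen left lobe, depleted of ribosomal RNA, and the labels number the libraries of a group as biological replicates. The spread behind each p-value of the main fit was estimated within the groups of all 30 libraries, not from the compared livers alone.

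The liver makes most plasma proteins, and these enter the endoplasmic reticulum, where chaperones fold them and enzymes attach their sugars. When unfolded protein builds up there, sensors in its membrane raise the genes of chaperones, of sugar attachment, of transport vesicles and of the removal of misfolded protein, a programme called the unfolded protein response. A parallel programme in the cytosol and nucleus, the heat shock response, raises the HSP70 and HSP90 chaperones and their helpers through the factor HSF1. The male mouse liver also carries sex-biased genes set by the pulses of growth hormone, and sterol synthesis genes governed by the factor SREBP2.

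In the control livers, 0 genes passed an adjusted p under 0.05 between the months (edgeR's quasi-likelihood test, Benjamini-Hochberg adjustment over 19685 genes, 0% called). At an unadjusted p under 0.05 there were 1361 genes (6.91%), 672 higher (3.41%) and 689 lower (3.5%) at month 9. DESeq2 called 44 genes, 3 higher and 41 lower, and limma voom with sample weights called 14, 6 higher and 8 lower. The smallest adjusted p was 0.059, shared by 4 genes that were all lower at month 9, among them Hspa5, Gmppb and Suco. In 1480 genes (7.52%) the 3 month 9 libraries all lay above the 3 month 4 libraries, and in 1637 genes (8.32%) they all lay below. Since no gene passed, the values below describe these 6 livers. Values of a group are listed in the order of replicates 1, 2 and 3.

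Total counts were 17765173 to 20215995 in the month 9 controls and 14369139 to 16737014 in the month 4 controls. These totals lie below the read numbers of the series' design text, and the gap is not explained in the sources used here. The long non-coding transcript Gm26917, whose low share in both groups was known when they were chosen, took 0.500% ± 0.0419 of counts at month 9 and 0.490% ± 0.0196 at month 4 (SD, n = 3 each). Mitochondrial genes took 2.16% ± 0.206 and 2.05% ± 0.555 of counts at months 9 and 4. Only 7 of the 13 protein genes of the mitochondrial genome passed the count filter, and mt-Co2, mt-Co3 and mt-Atp6 were among those left out. The share may therefore miss mitochondrial reads, which was not tested. All 13 hepatocyte markers were detected, with summed levels of 109120 to 131992 CPM (counts scaled to a common library size with TMM factors) at month 9 and 119036 to 136643 CPM at month 4. Of the month 9 controls, replicate 2 stood apart from replicates 1 and 3, with a chi-square per gene of 31.6 and 30.4 against them where those 2 differed by 9.49. Of the month 4 controls, replicate 3 had the highest chaperone levels. Medians are given without these libraries where they matter, and changes of cell number and of RNA per cell cannot be told apart in whole tissue.

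The chaperones and folding enzymes of the endoplasmic reticulum lay below month 4 levels in the month 9 controls. All 21 tested members had lower fitted values at month 9, and in 17 of 21 the libraries did not overlap, against 8.32% of all genes. The median log2 fold change of the list was -0.60, against 0.02 over all genes tested, and 0 members passed the test. With month 9 replicate 2 and month 4 replicate 3 both left out, the median was -0.30, and 17 of 21 members were lower without overlap, against 19.6% of all genes in those 4 libraries. Promoters of Hspa5 and Creld2 are shown because both genes belong to this list and hold the endoplasmic reticulum stress element, the motif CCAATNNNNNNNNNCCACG through which the unfolded protein response acts. Chordc1 and Hsph1 are shown for the heat shock element GAANNTTCNNGAA, the HSF1 motif. Each runs 5′ to 3′ from 250 bases before to 50 bases after the RefSeq start (GRCm38.p6), with the fixed bases of the motif, on either strand, in capitals. The genes and motifs were picked after values were seen. Hspa5 is at chr2:34771840-34772139 (+), Creld2 at chr15:88819396-88819695 (+), Chordc1 at chr9:18292017-18292316 (+) and Hsph1 at chr5:149636287-149636586 (-).
Hspa5: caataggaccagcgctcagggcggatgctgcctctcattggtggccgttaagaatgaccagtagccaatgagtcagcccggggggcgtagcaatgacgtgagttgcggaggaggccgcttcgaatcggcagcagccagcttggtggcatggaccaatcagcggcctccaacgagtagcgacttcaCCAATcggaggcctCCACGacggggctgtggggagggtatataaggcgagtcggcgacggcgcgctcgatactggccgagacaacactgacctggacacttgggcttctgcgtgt
Creld2: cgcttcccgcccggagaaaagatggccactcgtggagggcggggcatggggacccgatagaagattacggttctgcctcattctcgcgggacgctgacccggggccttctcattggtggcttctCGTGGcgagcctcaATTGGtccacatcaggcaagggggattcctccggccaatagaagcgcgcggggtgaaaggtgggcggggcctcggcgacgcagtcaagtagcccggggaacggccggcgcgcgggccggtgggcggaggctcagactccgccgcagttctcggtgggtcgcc
Chordc1: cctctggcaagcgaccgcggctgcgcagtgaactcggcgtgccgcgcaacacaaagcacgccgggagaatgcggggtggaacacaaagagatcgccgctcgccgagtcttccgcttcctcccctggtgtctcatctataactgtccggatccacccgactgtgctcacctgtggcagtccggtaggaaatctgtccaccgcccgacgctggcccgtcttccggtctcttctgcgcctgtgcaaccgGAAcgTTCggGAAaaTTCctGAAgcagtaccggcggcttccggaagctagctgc
Hsph1: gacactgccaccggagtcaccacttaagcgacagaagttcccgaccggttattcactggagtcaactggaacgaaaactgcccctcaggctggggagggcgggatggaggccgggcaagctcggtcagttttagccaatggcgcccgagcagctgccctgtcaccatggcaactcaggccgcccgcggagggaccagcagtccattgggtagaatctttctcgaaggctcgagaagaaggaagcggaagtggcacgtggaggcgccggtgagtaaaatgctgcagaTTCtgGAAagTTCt
The stress element, read on both strands, was found in 8 of the 18 listed genes with a promoter entry (Hspa5, Hsp90b1, Calr, Canx, Pdia6, Dnajc3, Creld2 and Derl3). It was present in 0.137% of all 27025 genes with a promoter entry, and in 0.119% of all 32851 promoters of this length. The heat shock element was found in 4 of 15 listed cytosolic heat shock genes (Hsph1, Chordc1 and the neighbours Hspd1 and Hspe1). Of all genes with an entry 0.662% held it, and of all promoters 0.603%. The Chordc1 window holds 3 overlapping copies counted over both strands. These matches are descriptions of the letters and were not tested as sites.

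Hspa5 encodes BiP, the HSP70 chaperone of the endoplasmic reticulum. Its levels were 1492, 1207 and 1288 CPM in the month 9 controls, against 2470, 2173 and 4270 CPM in the month 4 controls. Every month 9 value was below every month 4 value, and replicate 3 of month 4 stood highest. The log2 fold change was -1.16 ± 0.22 (SE; edgeR adjusted p = 0.059; 3 libraries per group). Over the 19 other settings it lay between -1.35 and -0.76, with adjusted p from 0.000192 to 1, and 8 settings called it. Leaving out month 4 replicate 3 gave -0.81 with an adjusted p of 0.974.

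Creld2, a secreted resident chaperone of the stress response, had 84.5, 54.6 and 50.6 CPM at month 9, against 220, 140 and 479 CPM at month 4. Manf, a secreted stress protein that binds BiP, had 89.3, 71.5 and 79.5 CPM at month 9 and 152, 127 and 300 CPM at month 4. The groups did not overlap for either gene, and month 4 replicate 3 was again the highest. Their log2 fold changes were -2.14 ± 0.43 for Creld2 (edgeR adjusted p = 0.142) and -1.27 ± 0.27 for Manf (adjusted p = 0.248). Hsp90b1, the HSP90 of the endoplasmic reticulum, had 795, 637 and 764 CPM at month 9 and 983, 901 and 1927 CPM at month 4. Pdia4, a disulfide isomerase, had 472, 454 and 480 CPM at month 9 and 599, 581 and 932 CPM at month 4, and Sdf2l1, a BiP cofactor, had 58.4, 28.3 and 52.4 CPM at month 9 and 73.1, 65.5 and 146 CPM at month 4. In each of the 3 genes the month 9 livers were all below the month 4 livers.

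Genes that carry the response or clear misfolded protein had the same order with more overlap. Dnajb9, a BiP co-chaperone, had 87.9, 68.3 and 85.9 CPM at month 9 and 133, 101 and 185 CPM at month 4, without overlap. Herpud1, which works in the removal of misfolded protein, had 803, 504 and 684 CPM at month 9 and 1363, 743 and 1426 CPM at month 4. The Herpud1 groups overlapped through month 4 replicate 2. Syvn1, the ubiquitin ligase of the same route, overlapped too, at 68, 35.4 and 51.5 CPM at month 9 and 97.9, 65.2 and 189 CPM at month 4. Edem3, which trims the sugars of misfolded proteins, had 114, 107 and 114 CPM at month 9 and 163, 141 and 185 CPM at month 4. Of the regulators, the sensor Atf6 had 155, 141 and 158 CPM at month 9 and 198, 176 and 197 CPM at month 4, and the factor Xbp1 had 265, 185 and 232 CPM at month 9 and 301, 310 and 348 CPM at month 4. Both were lower at month 9 without overlap, by smaller ratios than Hspa5, with log2 fold changes of -0.33 and -0.49. Bhlha15, a factor of secretory cells, had few counts, with 0.224, 0.287 and 0.325 CPM at month 9 and 2.90, 0.873 and 3.26 CPM at month 4.

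Several genes picked after their values were seen supply sugars, vesicles and calcium to the same compartment. Gmppb (chromosome 9, 108049242 to 108052801, Gencode M21 on GRCm38) makes GDP-mannose, the mannose donor for glycosylation, and had 18.8, 19.4 and 17.6 CPM at month 9, against 32.5, 32.0 and 44.8 CPM at month 4 (log2 fold change -0.97 ± 0.17, edgeR adjusted p = 0.059, 0.000115 to 0.97 over other settings). Suco (chromosome 1, 161816114 to 161876682), a membrane protein of the rough endoplasmic reticulum, had 40.2, 37.9 and 38.5 CPM at month 9 and 64.3, 50.9 and 74.9 CPM at month 4 (log2 fold change -0.70 ± 0.13, adjusted p = 0.059, 0.000474 to 1 over other settings). The month 9 livers were close to each other and below all month 4 livers for both genes. Gfpt1, the first enzyme of the hexosamine route, had 58.1, 53.5 and 53.4 CPM at month 9 and 92.4, 73.2 and 121 CPM at month 4. Uap1, a later enzyme of that route, had 57.7, 52.3 and 59.5 CPM at month 9 and 80.2, 77.0 and 87.9 CPM at month 4. Alg12, a mannosyltransferase, Sec23b and Arfgap3, which act on transport vesicles, and Atp2a2, the calcium pump SERCA2, did not overlap between the months either, with log2 fold changes of -0.67, -0.66, -0.96 and -0.71.

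**Figure D1:**
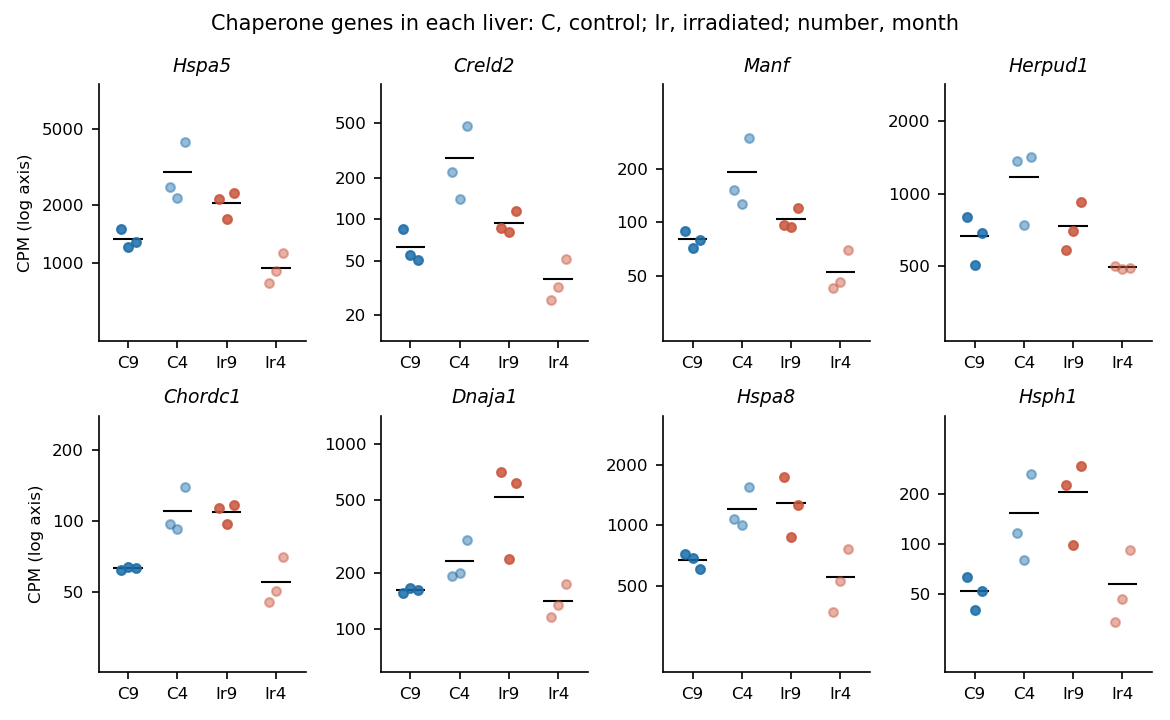
Levels of 8 chaperone genes in each liver, in CPM on log axes, in controls (C, blue) and irradiated livers (Ir, red) at months 9 and 4; points are livers and bars are means of 3. Hspa5 lies between 1207 and 1492 CPM in the month 9 controls, below all 3 month 4 controls, while irradiated livers have the opposite order.

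Cytosolic heat shock proteins lay lower at month 9 too. Of 19 tested members, 18 had lower fitted values at month 9 and 0 passed, with a median log2 fold change of -0.49. Lower without overlap were 13 of 19, against 8.32% of all genes. Without month 4 replicate 3 the median was -0.32, and that of the endoplasmic reticulum list was -0.37. With month 9 replicate 2 left out as well, the median of the cytosolic list was -0.31. In those libraries 13 of 19 members were lower and 1 higher without overlap, against 19.6% and 21.5% of all genes. Hspa8, the constitutive HSP70, had 720, 690 and 608 CPM at month 9, against 1081, 1006 and 1553 CPM at month 4. Chordc1, an HSP90 co-chaperone, had 61.7, 63.6 and 63.2 CPM at month 9, against 96.7, 92.4 and 140 CPM at month 4. Its month 9 livers agreed closely, and its log2 fold change was -0.80 ± 0.17 (edgeR adjusted p = 0.114). Hsph1, an HSP70 exchange factor, had 63.5, 40.3 and 51.9 CPM at month 9 and 116, 80.1 and 261 CPM at month 4.

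The inducible HSP70 genes Hspa1b and Hspa1a had the largest ratios of the list, with log2 fold changes of -1.87 and -2.03. The changes of Hsp90aa1 and Dnaja1 were smaller, at -0.83 and -0.52. Hspa1b had 17.7, 8.90 and 8.33 CPM at month 9 and 28.2, 25.7 and 74.9 CPM at month 4. Hspa1a, a near-identical copy whose reads may be shared with Hspa1b, was far lower in counts, at 0.337, 0.115 and 0.130 CPM at month 9 and 0.688, 0.940 and 0.857 CPM at month 4. Neither pair of groups overlapped. Hsp90aa1, the inducible HSP90, had 166, 165 and 158 CPM at month 9 and 218, 212 and 439 CPM at month 4. Dnaja1, an HSP40, had 157, 167 and 161 CPM at month 9 and 192, 200 and 302 CPM at month 4. The HSP40 Dnajb1 and the co-chaperone Bag3 overlapped between the months, with log2 fold changes of -0.46 ± 0.44 and -0.73 ± 0.32.

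Large sets of the cell's basic machinery lay slightly lower at month 9, with 0 members passing. Cytosolic ribosomal protein genes had a median log2 fold change of -0.21, with 65 of 68 below 0 and 23 lower without overlap. Over all genes tested, 8.32% were lower without overlap. Rps15a had 65.7, 60.1 and 63.3 CPM at month 9 and 88.4, 78.7 and 91.2 CPM at month 4, and Rpl7 had 286, 258 and 289 CPM at month 9 and 352, 332 and 387 CPM at month 4. Both genes code for ribosomal proteins with many pseudogene copies, so their counts are uncertain. Nuclear genes of oxidative phosphorylation had a median of -0.10 with 23 of 60 not overlapping and lower, among them Uqcrb and Uqcrh of complex III, and proteasome subunits had a median of -0.12 with 9 of 31, among them Psma1 and Psmd13. The 7 tested of the 13 protein genes of the mitochondrial genome had a median of -0.18 and 0 without overlap. That median became 0.21 without month 4 replicate 3, so its direction rests on that library. With 1 library left out at a time, the proteasome median ranged from -0.18 to -0.05 and the ribosomal median from -0.27 to -0.14. Without both month 9 replicate 2 and month 4 replicate 3 the medians were -0.07 for ribosomal, -0.05 for proteasome and -0.06 for oxidative phosphorylation genes.

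**Figure D2:**
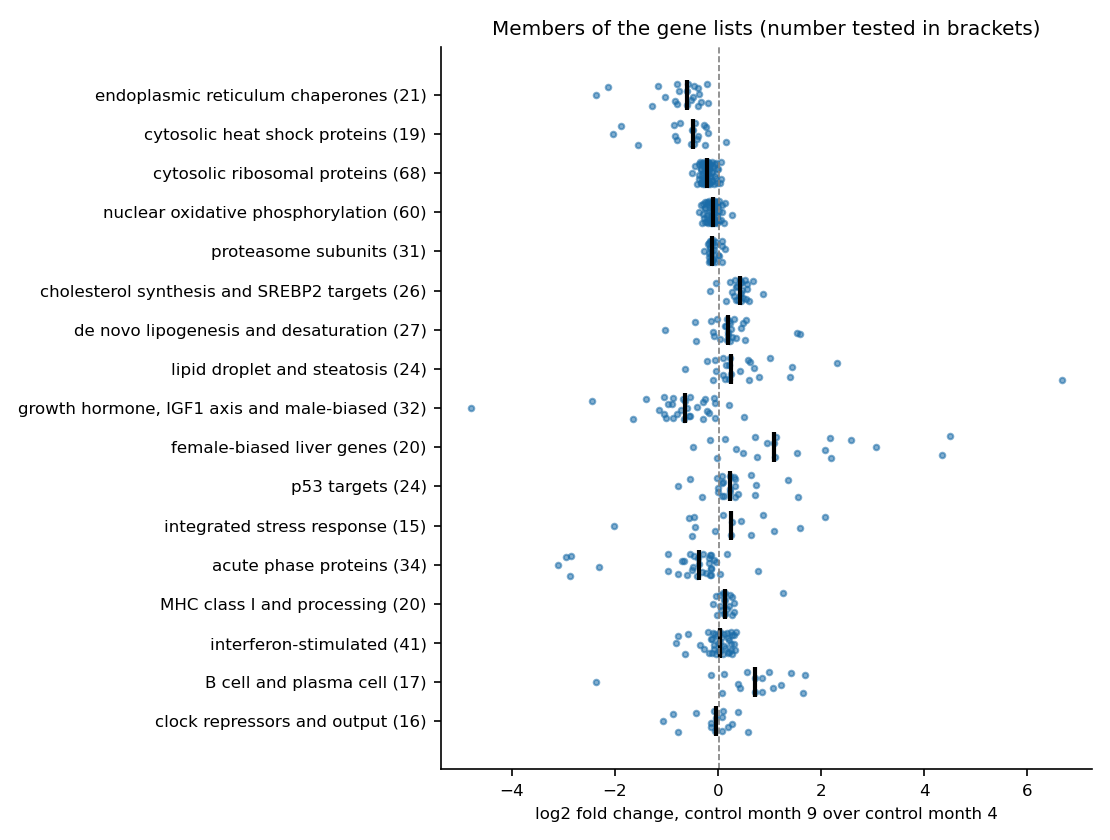
Log2 fold changes of control livers, month 9 over month 4, for members of 17 gene lists; each point is a gene, black bars are list medians and the dashed line is the median of all 19685 genes. The 2 chaperone lists and the list of growth hormone axis and male-biased genes lie left of the line, and the cholesterol and female-biased lists lie right of it.

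Sterol synthesis genes lay higher in the month 9 controls. Of 26 tested SREBP2 targets, 24 had higher fitted values at month 9, 14 did not overlap (7.52% of all genes were higher without overlap) and 0 passed, with a median of 0.43. Without month 9 replicate 2 and month 4 replicate 3 the median was 0.47, and 23 of 26 were higher without overlap, against 21.5% of all genes. Hmgcs1, which makes HMG-CoA, had 847, 935 and 1088 CPM at month 9, against 381, 653 and 528 CPM at month 4 (log2 fold change 0.88 ± 0.24, edgeR adjusted p = 0.439). Dhcr7, the last enzyme of one branch, had 70.1, 52.1 and 77.2 CPM at month 9 and 34.3, 42.8 and 47.7 CPM at month 4. Fdft1, squalene synthase, had 162, 165 and 196 CPM at month 9 and 88.0, 136 and 118 CPM at month 4. None of the 3 genes overlapped between the months. Sqle and Idi1 overlapped between the months. Hsd17b7 had 164, 174 and 224 CPM at month 9 and 112, 142 and 137 CPM at month 4.

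Other lipid lists were nearer to the median of all genes. Lipogenesis and desaturation genes had a median of 0.19 with 4 of 27 higher and 1 lower without overlap, against 7.52% and 8.32% of all genes. That median was 0.05 without month 9 replicate 2, 0.37 without month 4 replicate 2 and -0.03 without month 9 replicate 2 and month 4 replicate 3. Lpin1, a phosphatidate phosphatase, overlapped, at 340, 142 and 210 CPM at month 9 and 648, 271 and 497 CPM at month 4, as did the weakly expressed lipase Pnpla5. Targets of PPAR-alpha and fatty acid oxidation had a median of 0.08, with 5 of 37 higher and 1 lower. Pdk4, which restrains glucose oxidation, had 8.25, 27.3 and 23.3 CPM at month 9 and 6.57, 6.78 and 6.26 CPM at month 4, and the hormone gene Fgf21 had 0.281, 4.36 and 2.21 CPM at month 9 and 0.611, 0.403 and 0.600 CPM at month 4. Lipid droplet genes had a median of 0.25. In that list Cidea had 1.07, 61.0 and 2.34 CPM at month 9 and 0.306, 0.269 and 0 CPM at month 4, and Cidec had 4.55, 67.4 and 5.34 CPM at month 9 and 4.97, 5.51 and 5.06 CPM at month 4. Both proteins enlarge lipid droplets, and their high values belonged to month 9 replicate 2 alone. Without it the fitted change of Cidec was -0.08. Apoa4 was likewise 57.4 CPM in that liver and 12.0 and 15.8 CPM in the other 2 at month 9, against 9.63, 9.34 and 13.6 CPM at month 4, and Pparg overlapped between the months.

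Among sex-biased liver genes, male-biased members lay mostly lower and female-biased members mostly higher at month 9, with 0 of them passing. Genes of the growth hormone axis and male-biased genes had a median of -0.64, with 30 of 32 below 0 and 10 lower without overlap. Female-biased genes had a median of 1.10, with 17 of 20 above 0 and 7 higher without overlap. Of all genes tested, 8.32% were lower and 7.52% higher without overlap. Cyp4a12a, a male-specific fatty acid hydroxylase, had 131, 78.5 and 142 CPM at month 9, against 207, 220 and 294 CPM at month 4. Its near-identical neighbour Cyp4a12b had 35.0, 7.35 and 23.0 CPM at month 9 and 52.5, 68.1 and 84.5 CPM at month 4, and Cyp2d9, a male-biased steroid hydroxylase, averaged 901 ± 130 CPM at month 9 and 1333 ± 155 CPM at month 4 (SD, n = 3 each). In all 3 the months did not overlap, and month 9 replicate 2 was lowest. Hsd3b5 was 17.7 CPM in that liver but 328 and 323 CPM in the other 2 at month 9, against 330, 261 and 457 CPM at month 4. Ugt2b38 and Elovl3, also male-biased, had log2 fold changes of -2.45 ± 0.96 and -0.28 ± 0.44, Elovl3 with overlap.

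On the female side, Cyp2b9 had 14.8, 192 and 44.8 CPM at month 9, against 1.60, 6.05 and 3.34 CPM at month 4. Cyp2a4, a steroid hydroxylase, had 5.61, 18.8 and 8.0 CPM at month 9, against 0.306, 0.806 and 0.429 CPM at month 4. The fitted log2 changes were 4.50 ± 1.32 and 4.34 ± 1.13 (edgeR adjusted p = 0.496 and 0.437). Both belong to families of close copies, so single-gene counts are uncertain. Abcd2, a peroxisomal transporter, had 30.7, 80.2 and 34.1 CPM at month 9 and 11.2, 14.5 and 5.83 CPM at month 4. Ntrk2 overlapped and was high in 1 liver, at 1.63, 9.47 and 1.63 CPM at month 9 and 0.688, 1.61 and 2.14 CPM at month 4. Without month 9 replicate 2 the medians were -0.40 for the growth hormone axis and male-biased list and 0.81 for the female-biased list. With month 4 replicate 3 left out as well they were -0.17 and 0.69. Of the 32 members of the growth hormone axis and male-biased list, 11 were then lower and 9 higher without overlap. Of the 20 female-biased members 11 were higher and 1 lower there, against 21.5% higher and 19.6% lower of all genes.

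**Figure D3:**
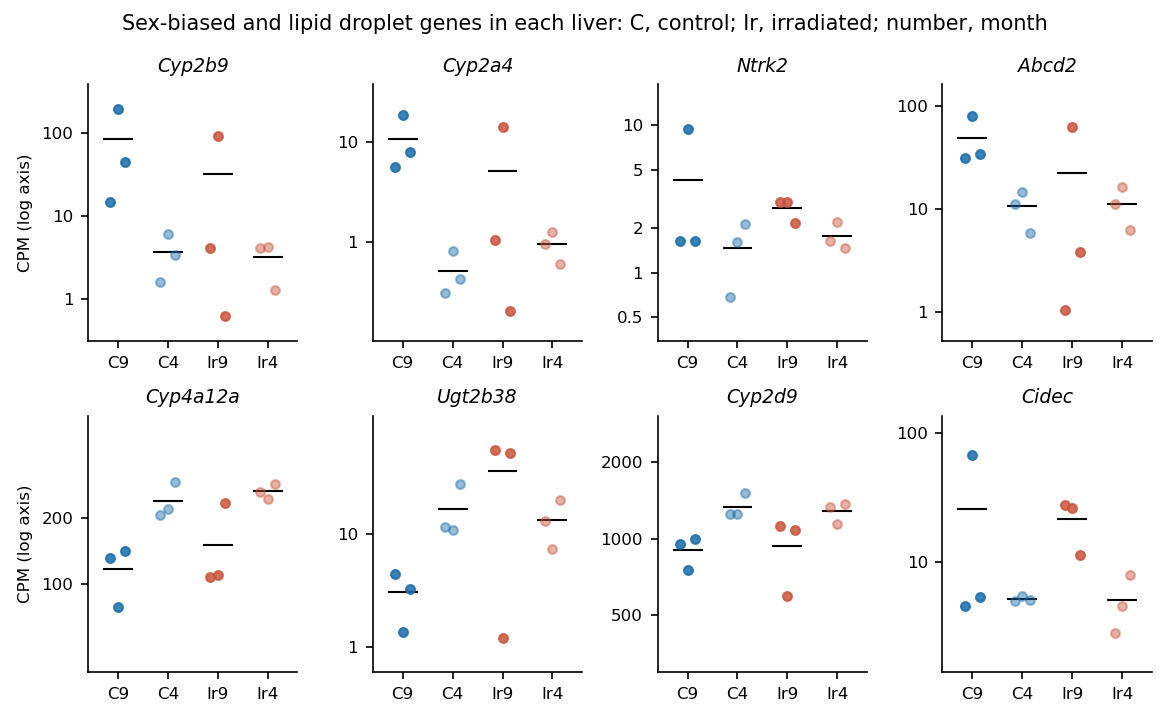
Levels of female-biased (Cyp2b9, Cyp2a4, Ntrk2, Abcd2), male-biased (Cyp4a12a, Ugt2b38, Cyp2d9) and lipid droplet (Cidec) genes in each liver, in CPM on log axes; C, control, Ir, irradiated, numbers are months, bars are means of 3. All 3 month 9 controls lie above the month 4 controls for Cyp2b9 and Cyp2a4, while 1 liver holds the high Cidec and Ntrk2 values of month 9 controls.

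Targets of p53, the factor that answers DNA damage, had a median of 0.23, with 5 of 24 higher and 2 lower without overlap. Among all genes tested, 7.52% were higher and 8.32% lower without overlap. Eda2r, a TNF receptor family member, had 5.11, 7.58 and 7.94 CPM at month 9, against 3.29, 2.96 and 1.71 CPM at month 4 (log2 fold change 1.36 ± 0.41, edgeR adjusted p = 0.496). Phlda3, an AKT inhibitor, had 2.47, 1.84 and 2.60 CPM at month 9 and 0.764, 1.01 and 0.514 CPM at month 4. Both were higher in all month 9 livers, while the cell cycle inhibitor Cdkn1a and Ccng1 overlapped and Tigar was lower, at 9.43 to 11.3 CPM at month 9 and 11.9 to 19.6 CPM at month 4. The list median was 0.09 without month 9 replicate 3. Of the integrated stress response, the branch that runs through ATF4, 4 of 15 members were higher and 3 lower without overlap, and the median of 0.25 became -0.04 without month 4 replicate 2. Gdf15, a stress hormone, had 10.3, 18.9 and 38.9 CPM at month 9 and 9.55, 6.92 and 5.91 CPM at month 4, and Sesn2 had 12.7, 12.7 and 14.7 CPM at month 9 and 10.2, 7.66 and 7.80 CPM at month 4. Atf5 and Psat1 were higher without overlap as well, and Cth was among the 3 lower ones. By fitted value 9 of the 15 members were above 0 and 6 below, the latter including Asns at -2.01 and Ddit3 at -0.51. Senescence and secretory genes had a median of 0.17, with Mmp12, a macrophage elastase, at 0.954, 3.73 and 0.521 CPM at month 9 and 0.306, 0.269 and 0.0857 CPM at month 4. Cell cycle genes had a median of -0.07 with 3 of 27 lower, among them Ccne2, while Cdc20 overlapped.

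B cell and plasma cell markers had a median of 0.72, or 0.46 without month 9 replicate 1. Higher without overlap were 6 of 17, against 7.52% of all genes, while 8.32% of all genes were lower. Ighm, the IgM heavy chain, had 27.8, 27.9 and 15.4 CPM at month 9 and 7.49, 14.9 and 7.97 CPM at month 4. Igkc, the kappa light chain, had 3.31, 2.53 and 2.02 CPM at month 9 and 0.382, 0.873 and 1.20 CPM at month 4. Fcmr, the IgM receptor, Cd79b and Jchain did not overlap either, and Derl3, which is also a member of the endoplasmic reticulum list, was lower at 3.48, 1.72 and 1.76 CPM at month 9 and 10.3, 4.70 and 21.3 CPM at month 4. The summed level of the list was 34.7 to 53.6 CPM at month 9 and 28.3 to 39.8 CPM at month 4, which overlapped. T and NK cell markers (median 0.05, Cd8a and Gzmb both overlapping), neutrophil markers (-0.60, or -0.02 without month 4 replicate 1, with Cxcr2 and Mmp8) and monocyte markers (0.06, with Cx3cr1 and Gpnmb) had 0 members without overlap. Kupffer cell and macrophage markers had a median of 0.10 with 1 of 16, Marco, without overlap. For dendritic cells (0.16), Fscn1 was the 1 of 8 without overlap and Clec9a overlapped.

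Acute phase proteins had a median of -0.38 with 6 of 34 lower without overlap, and -0.04 without month 4 replicate 1. The shares of all genes without overlap were 8.32% lower and 7.52% higher. Serpina3k, a plasma protease inhibitor, had 11564, 4955 and 10899 CPM at month 9 and 13152, 12029 and 18291 CPM at month 4. Saa1 had 27.4, 39.3 and 19.3 CPM at month 9 and 594, 36.3 and 29.1 CPM at month 4. Socs3, which dampens cytokine signals, had 6.17, 5.63 and 6.38 CPM at month 9 and 64.3, 18.8 and 6.26 CPM at month 4. For Saa1 the high value belonged to month 4 replicate 1 alone. Socs3 was above all month 9 livers in month 4 replicates 1 and 2, and replicate 3 lay within the month 9 range. Complement and coagulation genes had a median of -0.07, with 6 of 42 lower and Mbl2 the 1 higher. Interferon-stimulated genes lay at 0.04 with 2 of 41 higher and none lower without overlap, where Cxcl10 and Mx2 overlapped. Guanylate-binding proteins had a median near 0, with 2 of 18 higher (Gbp6 among them) and 4 lower (Gbp5 among them). MHC class I genes had a median of 0.14 with 5 of 20 higher, including Tapbp, while H2-Q1 was 21.8 CPM in month 9 replicate 2 alone. MHC class II genes had a median of 0.02 with 0 of 9, and H2-DMa and H2-Ob overlapped.

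Periportal and urea cycle genes had a median of -0.26 with 10 of 24 lower and 2 higher without overlap, against 8.32% and 7.52% of all genes. Cps1, the first urea cycle enzyme, had 9397, 4520 and 8479 CPM at month 9 and 10557, 10221 and 10729 CPM at month 4, and Cdh1, a periportal cadherin, had 18.7, 3.96 and 12.9 CPM at month 9 and 32.1, 35.4 and 53.3 CPM at month 4. Month 9 replicate 2 was lowest for both, and the list median was -0.16 without it. Pericentral genes had a median of 0.10 with 3 of 23 higher, including Lgr5 and Gstm3. Bile acid genes had a median of -0.11, with 4 of 29 lower, including the export pump Abcb11, and Abcc4 the 1 higher. Conjugation enzymes lay at 0.01 with Gstm1 among 7 of 40 higher and 6 lower, and CAR and PXR cytochromes at -0.03 with 3 of 34 higher and 5 lower, Ces2a among the lower. NRF2 targets had a median of 0.16, or -0.03 without month 9 replicate 3, and 2 of 23 higher, with Nqo1 at 9.43, 17.5 and 11.1 CPM at month 9 and 6.95, 8.20 and 7.03 CPM at month 4. Gluconeogenesis genes lay at -0.02 with 2 of 20 lower, one of them the glucose 6-phosphate carrier Slc37a4, and Asl overlapped. One-carbon genes lay at -0.13 with 5 of 22 lower, including Cth and Amd1. Hepatocyte transcription factors lay at 0.03 with 3 of 30 higher and 2 lower, of which Foxa3 had 48.7, 27.9 and 39.0 CPM at month 9 and 67.5, 63.0 and 67.0 CPM at month 4.

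The clock lists showed 0 genes without overlap, where 7.52% of all genes were higher and 8.32% lower. Their medians were -0.12 for activators (6 genes, Cry1 and Npas2 nearest to a difference) and -0.05 for repressors and outputs (16 genes, Bhlhe41 and Per2). Dbp, the clock output with a steep daily rhythm, had 49.3, 52.2 and 33.6 CPM at month 9 and 31.3, 46.2 and 40.3 CPM at month 4, and the groups overlapped. Glucocorticoid-induced genes had a median of -0.23, or 0.01 without month 4 replicate 1, and 0 of 17 without overlap, Zbtb16 and Fkbp5 included, and immediate early genes -0.15 with 1 of 21 higher, where Junb and Fos overlapped and were highest in month 4 replicate 1. Matrix genes had a median of 0.16 with 3 of 29 higher and 1 lower, and Bgn and Col5a1 overlapped. Iron genes lay at -0.01 with 2 of 20 lower, Slc39a14 among them, and Tfrc, the transferrin receptor, overlapped. Metallothionein and zinc genes had a median of -0.41, or -0.10 without month 4 replicate 1, with 3 of 9 lower, Mtf1 among them, and Slc39a5 higher. Nuclear long noncoding RNAs had a median of -0.12, with Snhg11 the 1 of 8 higher without overlap, 1 lower and Neat1 overlapping.

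Markers of the remaining cell types were set beside the shares of all genes without overlap, 7.52% higher and 8.32% lower. Endothelial markers had a median of 0.15 with 1 of 14 higher, and Bmp2 and Lyve1 overlapped. Stellate cell and fibroblast markers lay at 0.14, with 4 of 16 higher and 1 lower. The lower one was Acta2, a smooth muscle actin, at 2.36, 2.30 and 1.17 CPM at month 9 and 4.66, 5.64 and 5.66 CPM at month 4, while Ecm1 overlapped. Myh11, the smooth muscle myosin, had 5.33, 5.34 and 4.95 CPM at month 9 and 8.94, 9.67 and 9.34 CPM at month 4, and Cnn1 was lower too. All 5 tested muscle markers were below 0 by fitted value, with a median of -0.71. Erythroid markers had a median of -0.38 with 3 of 11 lower, where Hbb-bs overlapped, and the globin share was 0.0106% ± 0.00358 at month 9 and 0.0163% ± 0.00376 at month 4 (SD, n = 3 each; exact two-sided permutation p = 0.2, where 0.1 is the smallest possible). Bile duct markers lay at 0.22 with 3 of 11 higher, Cldn7 among them, and Sox9 overlapped. Mesothelial (0.26; Upk3b and Wt1), platelet (0.26; Itga2b and Pf4), adipocyte (0.08; Cfd and Plin1) and pancreatic (0.07; Cela2a and Pnliprp1) markers had 0 without overlap, and the tumour and fetal list (0.22) had 1 of 8, Afp, with Lin28b overlapping. Without month 9 replicate 2 the adipocyte median was -0.78 and the mesothelial median -0.03, and without month 9 replicate 3 the pancreatic median was -0.26. The hepatocyte markers had a median of -0.11 with 3 of 13 lower, Cps1 and Fgg among them. The part of these cell types in the gene results was not tested.

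The irradiated livers at the same months gave other directions for many of these genes. There, 736 genes (3.74%) differed between month 9 and month 4, 469 higher (2.38%) and 267 lower (1.36%), a split that became 398 and 412 with upper quartile factors and 648 and 219 with RLE factors. With only the 6 irradiated libraries fitted, edgeR called 0 genes (2864 at an unadjusted p under 0.05). Leaving out 1 of these libraries gave 31 (month 4 replicate 1) to 1821 genes (month 9 replicate 2), and each of the 6 moved the count by over 1.5 times. Of the 672 genes with an unadjusted p under 0.05 that were higher at month 9 in controls, 31.4% were also higher in irradiated livers, where 48.1% of all genes were higher. Of the 689 that were lower in controls, 15.8% were also lower in irradiated livers, where 51.9% of all genes were lower. The month 4 irradiated libraries differed in composition, with a Gm26917 share of 0.827% to 0.985%, against 0.460% to 0.585% at month 9.

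The difference between the arms was tested directly. The change in controls minus the change in irradiated livers passed for 804 genes (4.08%), 257 higher (1.31%) and 547 lower (2.78%). That split was 197 and 773 with RLE factors and 407 and 429 with upper quartile factors, with a median over all genes of -0.015 and 0.148, against 0.049 with TMM factors. In 541 of the 804 genes the controls were lower and the irradiated livers higher at month 9 by fitted value, in 256 the reverse, and in 7 the signs agreed. With the Gm26917 level as a covariate 302 genes passed. Leaving out 1 of the 12 libraries gave 253 (irradiated month 4 replicate 2) to 1762 genes (irradiated month 9 replicate 2), and each library but control month 4 replicate 2 moved the count by over 1.5 times. Of the chaperone lists, 10 of 21 endoplasmic reticulum chaperones and 16 of 19 cytosolic heat shock proteins passed, all lower, and 2.78% of all genes did so. With 1 library left out, 5 to 12 and 9 to 17 of them passed, and without control month 9 replicate 2 and month 4 replicate 3 together 3 and 5 passed, where 144 genes passed in all.

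Hspa5 had 2154, 1683 and 2319 CPM in irradiated livers at month 9 and 778, 904 and 1116 CPM at month 4, so that it rose there by 1.14 ± 0.22 on the log2 scale (edgeR adjusted p = 0.00657). The difference between the arms was -2.30 ± 0.31 (adjusted p = 0.00039), and it passed in all 25 other settings. Chordc1 had 113, 97.0 and 117 CPM in irradiated livers at month 9 and 45.2, 50.1 and 70.0 CPM at month 4, with a difference of -1.79 ± 0.23 (adjusted p = 0.00039). Dnaja1 had 708, 237 and 612 CPM in irradiated livers at month 9 and 116, 135 and 175 CPM at month 4, and differed by -2.38 ± 0.37. Hspa1b differed by -4.91 ± 0.88. The 2 arms thus had opposite orders of the months for these genes, and at month 4 the controls were the higher arm.

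Outside the chaperones, the 8 genes with the smallest p for the difference held Eif4e, the cap-binding translation factor, Ints2 of the Integrator complex, Nabp1, a single-strand DNA-binding protein, Hyal2, a hyaluronidase, and Zfp362, a zinc finger protein. Eif4e had 37.1, 37.7 and 40.5 CPM in controls at month 9 and 46.2, 49.3 and 59.1 CPM at month 4, against 68.6, 49.5 and 59.0 CPM and 30.5, 33.8 and 36.0 CPM in irradiated livers. Hyal2 and Zfp362 had the opposite sign, with differences of 0.98 ± 0.16 and 1.97 ± 0.33 (adjusted p = 0.00259 each, a value that further genes share). Amd1, which makes a precursor of polyamines, and Tfrc differed by -1.46 ± 0.26 and -1.73 ± 0.29 (adjusted p = 0.00259 each). Of the sterol genes, 11 of 26 rose and 1 fell in irradiated livers by the adjusted p, against 2.38% and 1.36% of all genes. Their median there was 0.64, and their summed level was highest in month 9 replicate 1. It was 12968, 7733 and 6309 CPM at month 9 and 4909, 6083 and 4889 CPM at month 4. Without month 9 replicate 1, 58 genes passed in irradiated livers in all, and the sterol genes among them were not counted. The difference between the arms passed for 2 of 26 members, 1 in each direction, against 1.31% higher and 2.78% lower of all genes. Hmgcs1 was one that rose in irradiated livers (log2 fold change 1.19 ± 0.24, adjusted p = 0.00944), and its difference between the arms was -0.31 ± 0.34 (adjusted p = 0.672).

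**Figure D4:**
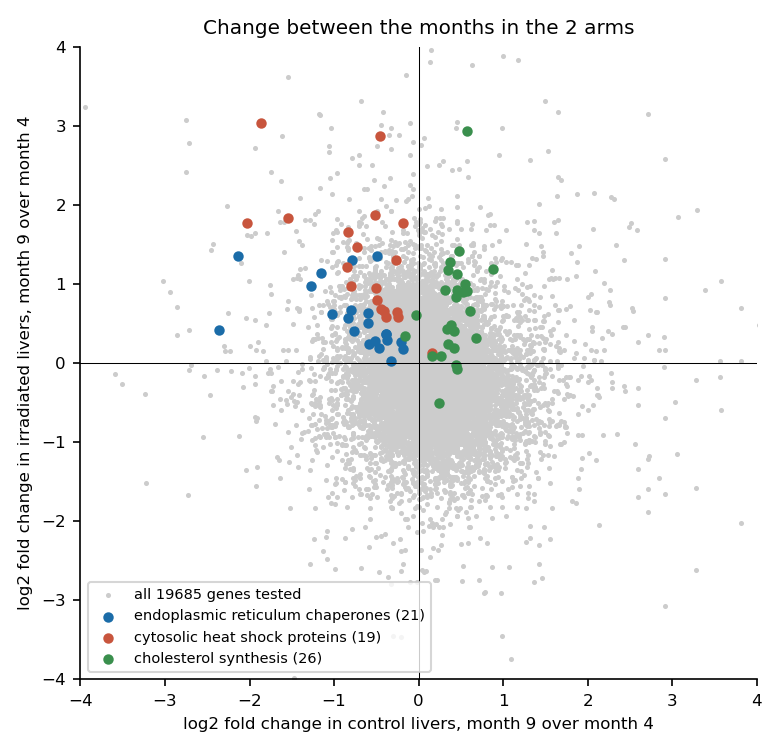
Log2 fold change of month 9 over month 4 in control livers (horizontal) against irradiated livers (vertical) for all 19685 genes tested (22 lie outside the axes, which end at 4). Points of the endoplasmic reticulum (21) and cytosolic (19) chaperone lists lie mostly in the upper left, and cholesterol genes (26) mostly in the upper right.

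The 5 months of the control arm place the 2 groups in a series, although composition also changed: the Gm26917 share was 3.04% to 6.09% at month 1, 3.32% to 4.76% at month 2, and 1.33% to 2.04% at month 12. Hspa5 averaged 564 ± 32.0, 2031 ± 475, 2971 ± 1135, 1329 ± 147 and 1385 ± 124 CPM at months 1, 2, 4, 9 and 12 (SD, n = 3 each). Month 4 had the highest mean, with replicate 3 far above the other 2, and differed from month 2 by less than its SD, as did month 9 from month 12. Gmppb averaged 9.32 ± 0.204, 20.6 ± 1.67, 36.4 ± 7.28, 18.6 ± 0.876 and 16.5 ± 1.99 CPM over the same months, and Hspa8 221 ± 65.0, 805 ± 117, 1214 ± 296, 672 ± 57.6 and 822 ± 171 CPM. Both had their highest mean at month 4. Hmgcs1 averaged 306 ± 73.8, 400 ± 74.1, 521 ± 136, 957 ± 122 and 821 ± 37.1 CPM, so that months 9 and 12 lay above the 3 earlier months. Cyp4a12a averaged 222 ± 44.8, 297 ± 98.9, 240 ± 46.8, 117 ± 33.8 and 106 ± 20.0 CPM, and Eda2r 0.664 ± 0.160, 1.03 ± 0.0219, 2.65 ± 0.829, 6.88 ± 1.54 and 5.67 ± 0.220 CPM. For these 2 genes months 9 and 12 lay on the same side of the earlier months.

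**Figure D5:**
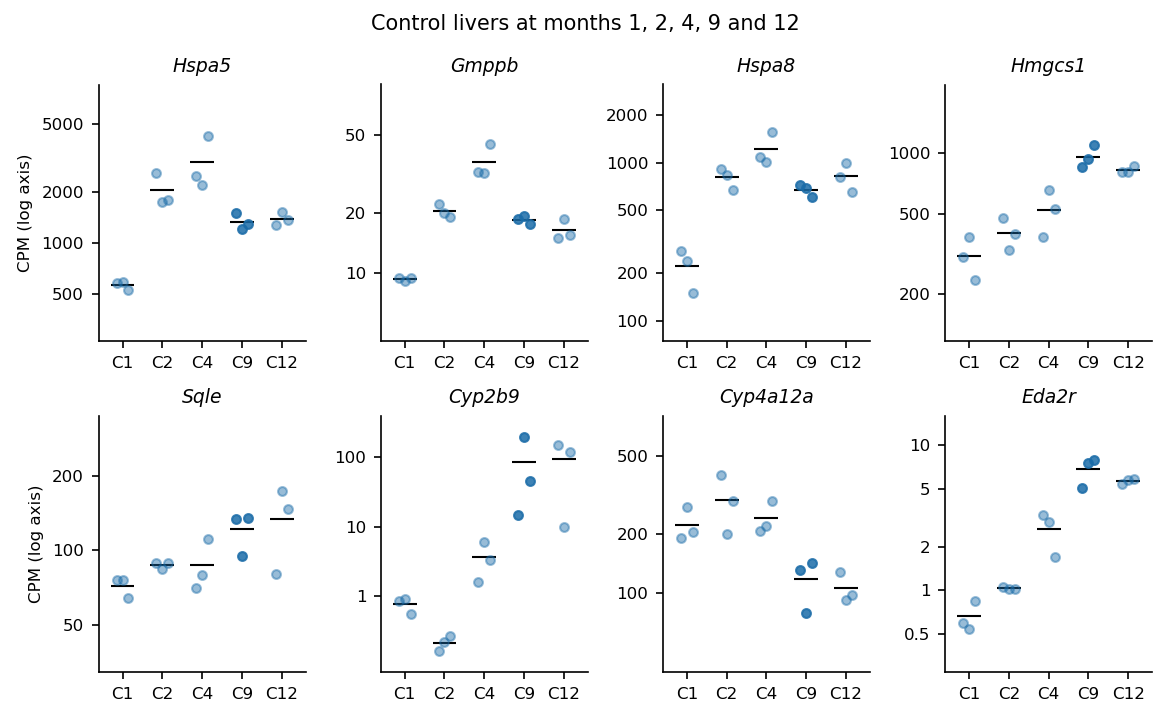
Levels of 8 genes in the control livers at months 1, 2, 4, 9 and 12, in CPM on log axes; points are livers, month 9 is darker, bars are means of 3. Hspa5, Gmppb and Hspa8 have their highest mean at month 4, and Hmgcs1 and Eda2r have higher means at months 9 and 12 than at the earlier months.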

How the data were processed

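The authors deposited 1 table of unnormalised read counts per gene. Per the series' design text, STAR 2.5.3a aligned the reads to GRCm38, and its GeneCounts mode counted them on Gencode M14. Which strand column was kept is not given in the sources used here, so genes that overlap on opposite strands are uncertain. Of 51826 Ensembl identifiers, 193 had no symbol in Gencode M21, the source of names and coordinates. edgeR 4.0.16 (R 4.3.3) was run on all 30 libraries with 1 coefficient for each group, after filterByExpr (minimum count 10, minimum total 15) had left 19685 genes. Factors were TMM, the quasi-likelihood fit was robust, and a Benjamini-Hochberg adjusted p under 0.05 over all these genes was the threshold. A chi-square of counts between replicates of the 4 groups compared (12 pairs) found no duplicate.

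Members, lists and tests were chosen with earlier results of these data known. The rule for named genes took the called genes with the largest change and the smallest adjusted p (there were none), the 2 members with the smallest p from each list, and the 8 smallest adjusted p of the difference between the arms, without predicted genes. All other named genes were picked after their values were seen, among them Gmppb, Suco, Gfpt1, Uap1 and further members of the chaperone, sterol, sex-biased and stress lists. Lists were described by counts and medians with no test. Promoters came from RefSeq (GRCm38.p6). The alternatives were RLE and upper quartile factors, other filters, DESeq2 1.42.0, limma 3.58.1 voom, 1 surrogate variable (sva 3.50.0), a replicate block, fewer libraries and the Gm26917 level. Leaving out month 9 replicate 2 and month 4 replicate 3 of the controls together was chosen after seeing the data. A few genes that the rule or the lists hold are not reported here.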

Additional observations from a re-analysis of the deposited data

Results flagged for a closer look

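The change between months 9 and 4 differed between control and irradiated livers by the interaction test (edgeR, adjusted p under 0.05) for 804 genes, and the named genes among them are given here as control minus irradiated log2 change. Of the endoplasmic reticulum and secretory genes, the difference was -2.30 for Hspa5, -3.51 for Creld2, -2.24 for Manf, -2.10 for Dnajb9, -1.46 for Hsp90b1, -1.40 for Herpud1, -1.92 for Syvn1, -0.91 for Edem3, -1.84 for Xbp1 and -4.07 for Bhlha15. It was -1.43 for Gmppb, -0.95 for Suco, -1.34 for Gfpt1, -1.09 for Uap1, -1.16 for Alg12, -1.27 for Sec23b, -1.25 for Arfgap3 and -1.09 for Atp2a2. Of the cytosolic chaperones, it was -2.07 for Hspa8, -1.79 for Chordc1, -3.38 for Hsph1, -4.91 for Hspa1b, -3.79 for Hspa1a, -2.48 for Hsp90aa1, -2.38 for Dnaja1, -3.33 for Dnajb1 and -2.20 for Bag3. Other negative differences were -1.24 for Eif4e, -1.30 for Ints2, -2.09 for Nabp1, -1.46 for Amd1, -1.73 for Tfrc, -2.25 for Lpin1 and -1.01 for Slc37a4. Positive differences were 0.98 for Hyal2, 1.97 for Zfp362, 2.78 for Gdf15, 1.17 for Sesn2, 1.13 for Notch1 and 0.88 for Plekhb1. Of these 40 named genes, 21 passed in every alternative. In the 25 alternatives Gdf15 passed in 6, Xbp1 in 8, Lpin1 in 10, Plekhb1 and Slc37a4 in 13 each, Syvn1 in 14, Arfgap3 in 15, Bhlha15 in 16, Sesn2 in 17, Atp2a2 and Hsp90b1 in 18 each and Edem3 in 20. Hspa1a passed in 10 of the 22 that tested it, and Dnajb1, Hsp90aa1, Hsph1, Bag3, Dnajb9 and Herpud1 passed in 22 to 24. The Gm26917 share was 0.827% to 0.985% in the irradiated month 4 libraries and at most 0.585% in the other 9 libraries of the test, and with it as a covariate 302 genes passed.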

How the results depend on the processing

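With 3 livers a group, calls in the control comparison depended on the method. The 0 genes of the main analysis became 4 with RLE factors, 4 with upper quartile factors, 10 with no filter, 4 with a 1 CPM filter, 44 with DESeq2, 14 with voom, 1 in the 6 compared libraries, 6 with 1 surrogate variable and 0 to 12 with 1 library left out (12 without month 4 replicate 2). A replicate block gave 133 genes in the 6 compared libraries and 0 in all libraries. The numbers were not taken as pairs: same-number correlations were 0.0283, 0.242 and 0.305 in controls, each library being closest to its own number, and -0.0525, 0.02 and -0.0721 in irradiated livers. The irradiated count of 736 became 457 with no filter, 1471 with DESeq2, 1473 with voom, 0 in the compared libraries with or without the block, 233 in 18 libraries, 334 with the surrogate variable, 92 with the Gm26917 covariate and 31 to 1821 with 1 library left out. The 804 genes of the difference became 442 with no filter, 1578 with DESeq2, 1662 with voom, 535 in the compared libraries, 499 in 18 libraries, 302 with the covariate, 144 with 2 control libraries left out and 253 to 1762 with 1 left out, and 811 with the block in the compared libraries.

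Of the named genes' alternative values, 2975 kept direction and side of the threshold, 90 passed it and 24 changed sign. With voom, Cfd was -0.79, Pf4 -0.15 and mt-Nd2 0.11. Without month 9 replicate 2 and month 4 replicate 3, Cfd was -1.19, Cidec -0.10, Cx3cr1 -0.13, Gpnmb -0.25, H2-Ob -0.16, H2-Q1 -0.17, Hsd3b5 0.13, Pf4 -0.67, Pnliprp1 -0.49, Wt1 -0.05, mt-Nd2 0.40 and mt-Nd6 0.11. With 1 library left out, ranges were -0.98 to 0.02 for Cela2a, -1.16 to 1.80 for Cfd, -0.08 to 2.81 for Cidec, -0.15 to 0.74 for Cx3cr1, -0.05 to 1.67 for H2-Q1, -1.03 to 0.11 for Neat1, -0.35 to 0.80 for Pf4, -0.53 to 0.27 for mt-Nd2, -0.56 to 0.13 for mt-Nd6 and -0.04 to 0.38 for the integrated stress response median. Of the 56 list medians, 18 changed sign when some 1 control library was left out and 19 without month 9 replicate 2 and month 4 replicate 3, 25 in all. Why these values moved was not tested.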

Other observations

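Among the genes with the smallest p in the control comparison, all picked after their values were seen, several outside the lists were higher at month 9 without overlap. Plekhb1, a membrane-associated pleckstrin domain protein, had 51.3, 42.1 and 53.4 CPM at month 9 and 28.9, 30.7 and 31.9 CPM at month 4 (log2 fold change 0.68 ± 0.16, edgeR adjusted p = 0.275). Notch1, a receptor of cell-contact signalling, had 63.2, 63.6 and 80.6 CPM at month 9 and 48.2, 48.2 and 42.3 CPM at month 4. Its fitted change was 0.58 ± 0.14, while it fell by 0.55 in irradiated livers (adjusted p = 0.0295).

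Serpina6, the corticosteroid-binding globulin of plasma, had 129, 123 and 127 CPM at month 9 and 70.8, 70.8 and 75.3 CPM at month 4, with little spread within each month (log2 fold change 0.81 ± 0.23, adjusted p = 0.496). Enpp1, which makes pyrophosphate, had 45.9, 44.1 and 48.7 CPM at month 9 and 33.5, 31.3 and 32.6 CPM at month 4. The GTPase activator Rap1gap (0.93 ± 0.24), the growth factor Vegfb (0.76 ± 0.22) and Nebl (1.54 ± 0.44) were also higher in all month 9 livers. None of these genes passed the test in the main fit. Of the 19 other settings, 3 called Serpina6, 3 called Plekhb1, 2 called Enpp1 and 1 called Nebl. Notch1, Rap1gap and Vegfb were called in 0.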
